A study of Saccharomyces cerevisiae with 6 samples.

Results

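The genes of glycolysis and fermentation were examined in Δset2 and WT cells of Saccharomyces cerevisiae. The group comprised 32 genes, taken by gene name. They encode the enzymes from the phosphorylation of glucose to ethanol, the branches to acetate and glycerol, the kinases that make the activator of phosphofructokinase, and the regulator Gcr1. They were chosen for their place in the pathway, with earlier results of these data known. All 32 were found among the 18646 transcriptional units in the count table, and 29 of them were among the 5317 units with enough reads to be tested.

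Set2 is the histone methyltransferase that modifies lysine 36 of histone H3 along transcribed genes. RNA was sequenced from SET2 KO cells (Δset2), labelled as a W303 strain with a set2::His3 knockout, and from W303 wild-type cells (WT), with 3 separately grown colonies in each group. The paper names a KanMX cassette for the deletion, whereas the labels name the His3 marker, and which one applies could not be settled here. Cultures grew in rich glucose medium (YPDA), and total RNA was depleted of rRNA and read from 1 end for 76 nt, with all libraries in 1 pool.

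Yeast that is given glucose ferments it to ethanol even when oxygen is present, and the enzymes that carry this flux are among the most abundant proteins of the cell. Many steps are encoded by pairs or triplets of similar genes, in which a major isozyme is used during growth on glucose and a minor one is kept low by glucose repression or is induced in other conditions. Gcr1, together with Rap1, drives transcription of the major glycolytic genes, whereas several minor isozymes are induced by stress or when glucose runs out.

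Libraries held between 5135226 and 22536840 counted reads, and the smallest and the largest were both Δset2 samples. SET2 itself had 20, 9, and 32 reads in the Δset2 samples, against 435, 298, and 459 reads in the WT samples, so every library matched its label. Markers of a cells summed to between 821 and 929 normalized CPM in the Δset2 samples, against 858 to 1069.7 in the WT samples, and markers of alpha cells stayed at or below 1.51 in every sample. Values are given as normalized CPM, that is, the read count of a unit scaled to a common library size (CPM) with TMM factors. A unit was called changed when edgeR's quasi-likelihood test gave an adjusted P value below 0.05 and the fold change exceeded 1.5. The P values from edgeR weigh the difference between the groups against the spread between colonies, estimated with the help of all tested units. Independently made deletion strains are not described, so the spread between such strains is not covered. A single gene tested by exact permutation of 3 against 3 samples could not reach a P value below 0.1. The 32 genes together took 14.4%, 15.8%, and 14.7% of the counted reads in the Δset2 samples, against 14.1%, 12.8%, and 13.7% in the WT samples.

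The counting decided how much of each gene was seen. A read was discarded if it overlapped a second unit or had more than 1 position in the genome, and strand was not considered. Every 76-nt read position of each gene was therefore compared with the annotated units and aligned back to the genome. All positions were countable for 5 genes (PGI1, PFK2, PDC6, GPD2, and GCR1), and 17 of the 32 genes kept at least 90%. For 7 genes fewer than 50% of the positions were countable, namely TDH2, PGK1, GPM1, GPM2, CDC19, ADH2, and ADH5. PGK1, GPM1, and CDC19 lost positions to overlapping units, and TDH2, TDH3, ENO1, and ENO2 lost them to near-identical copies. For example, the unit of TDH2 had 444 countable positions of 1126 and that of TDH3 had 606 of 1110. The level of such a gene therefore rests on the part of its length that could be counted.

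**Figure D1:**
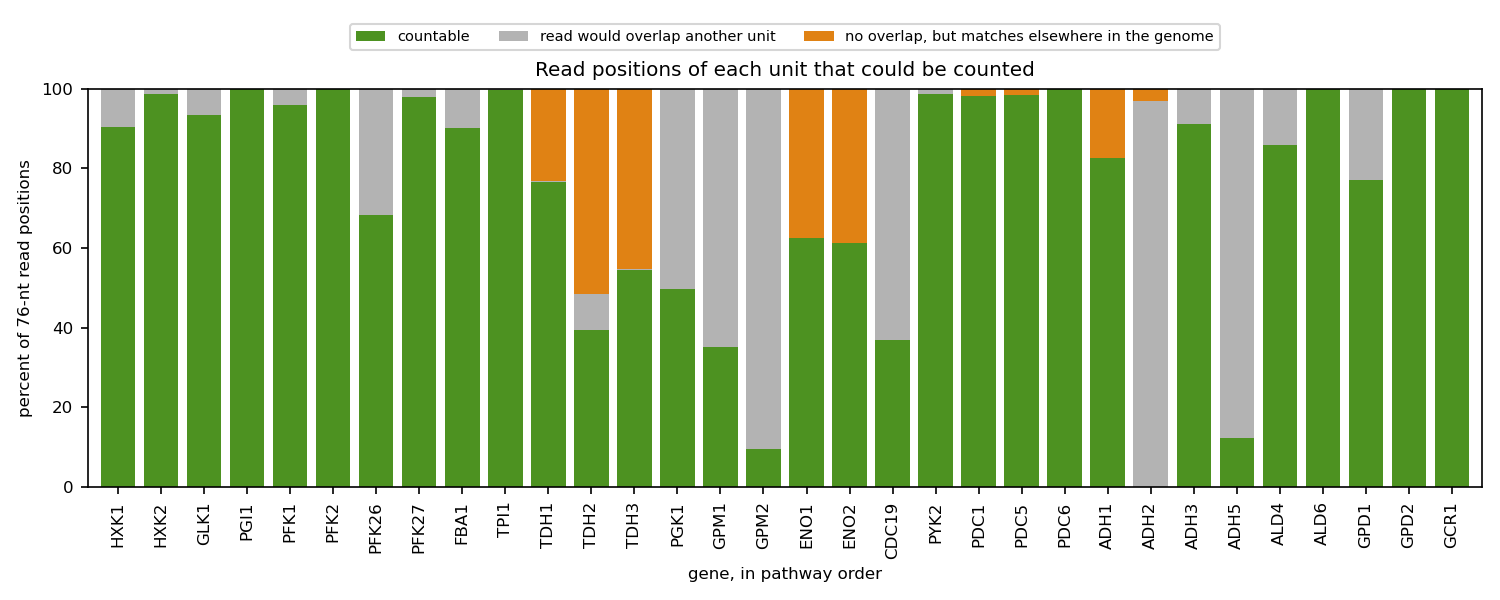
Percent of the 76-nt read positions of each gene that could be counted (green), that would overlap another unit (grey), or that match elsewhere in the genome (orange), with the genes in pathway order. ADH2 has no countable position, whereas PGI1, PFK2, PDC6, GPD2, and GCR1 keep 100%.

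ADH2, which encodes the glucose-repressed alcohol dehydrogenase that oxidizes ethanol, had 0 reads in all 6 samples. Its unit (chromosome XIII, 873110 to 874390, minus strand) was covered by 4 other units except for 111 bases. Those bases are the same in ADH1, the major fermentative alcohol dehydrogenase, with 0 differences. The 36 read positions inside them therefore matched the genome more than once. The zero is a property of the counting and gives no level of ADH2 in either strain. The stretch is shown from both genes, read on the minus strand of the reference genome (RefSeq R64, the coordinates of sacCer3), at chrXIII:873997-874107 for ADH2 and chrXV:160254-160364 for ADH1; no letter is in capitals because none differs.
ADH2: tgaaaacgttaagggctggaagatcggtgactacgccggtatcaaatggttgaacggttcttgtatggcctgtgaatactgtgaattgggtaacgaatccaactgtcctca
ADH1: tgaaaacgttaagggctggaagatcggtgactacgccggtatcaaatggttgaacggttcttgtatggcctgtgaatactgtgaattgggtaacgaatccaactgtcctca

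The genes spanned a wide range of levels. Per countable kilobase, TDH3, which encodes the major glyceraldehyde-3-phosphate dehydrogenase, was the highest of the 31 genes with a level, with a mean of 59906 normalized CPM in Δset2 cells and 53841 in WT cells. ENO2 (enolase) followed with 22284 in Δset2 cells and 19426 in WT cells, and ADH1 with 17384 in Δset2 cells and 15122 in WT cells. FBA1, which encodes aldolase, had 13412 in Δset2 cells and 12653 in WT cells. The lowest was PDC6, a minor pyruvate decarboxylase gene, with 1.24 normalized CPM per countable kilobase in Δset2 cells and 1.01 in WT cells. In both strains TDH3, ENO2, PDC1, ADH1, and CDC19 lay above the other isozymes of their step that had a level, which ADH2 did not.

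**Figure D2:**
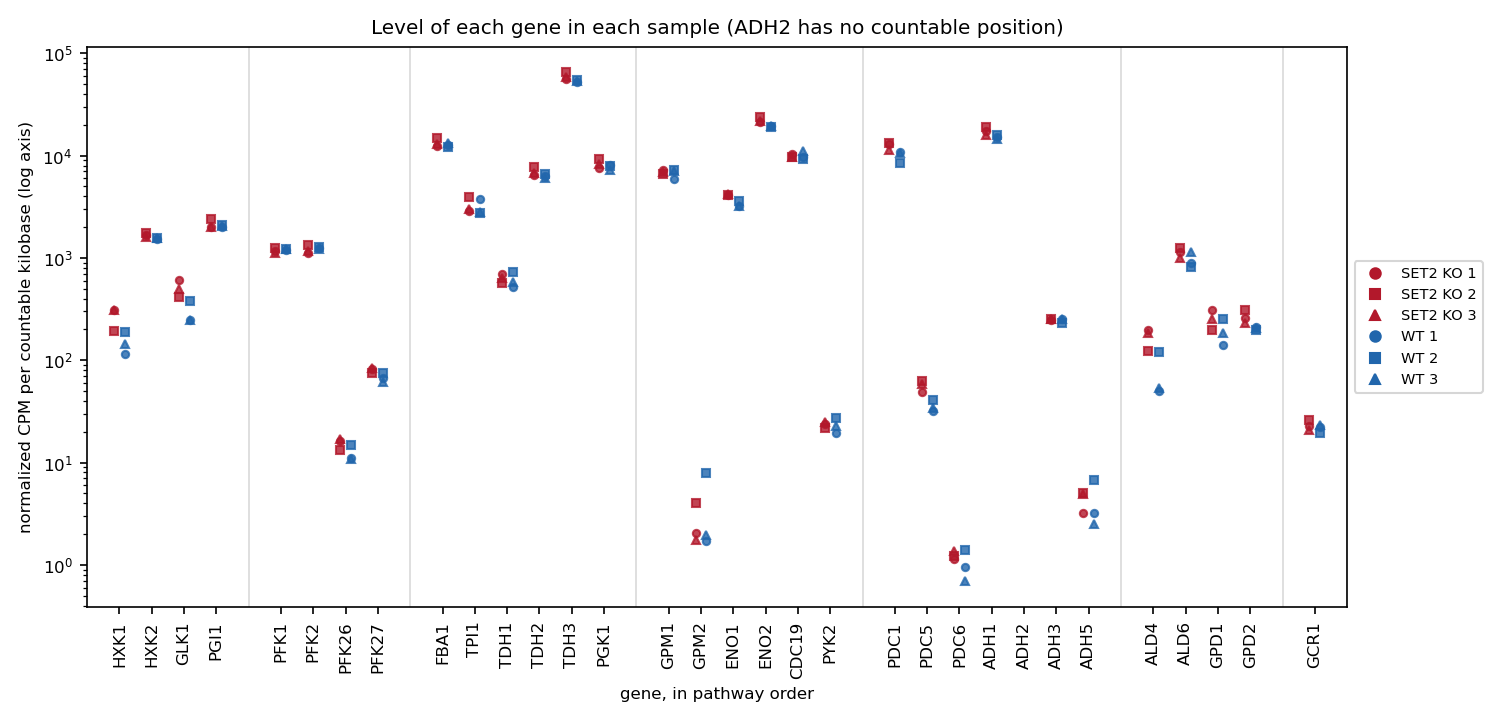
Level of each gene in each of the 3 SET2 KO (Δset2, red) and 3 WT (blue) samples, in normalized CPM per countable kilobase on a log axis, with grey lines between the pathway stages. TDH3, with means of 59906 in Δset2 cells and 53841 in WT cells, is the highest, and PDC6 is the lowest.

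Of the 29 tested genes, 3 passed both thresholds, and all 3 were higher in Δset2 cells: the minor hexokinase gene HXK1, the glucokinase gene GLK1, and PDC5, a minor pyruvate decarboxylase gene. That is 10.3% of the tested members, against 3.57% of all tested units past both thresholds and 2.84% past both and higher in Δset2 cells. The same 3 genes were the only members past the adjusted P value alone, which 6.24% of all units passed and 4.48% passed in the higher direction. None of the 29 genes passed in the lower direction. At an unadjusted P value below 0.05, 9 members were higher and 0 lower, against 12.8% of all tested units higher and 10.7% lower. DESeq2 called the same 3 members at both thresholds.

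The log2 fold changes of the 29 genes ran between -0.05 and 1.19. Their median was 0.15, whereas that of all tested units was -0.0040. Of the 29, 26 were positive (89.7%), compared with 49.5% of all tested units. In 12 members (41.4%) every Δset2 value lay above every WT value, which was so for 14.1% of all tested units. They were HXK1, HXK2, GLK1, PFK27, TDH3, ENO1, ENO2, PDC1, PDC5, ADH1, ALD4, and GPD2. In 0 members did every Δset2 value lie below every WT value, against 13.8% of all tested units. These counts describe the list, which was chosen with earlier results of these data known. Its members were not tested as a set.

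**Figure D3:**
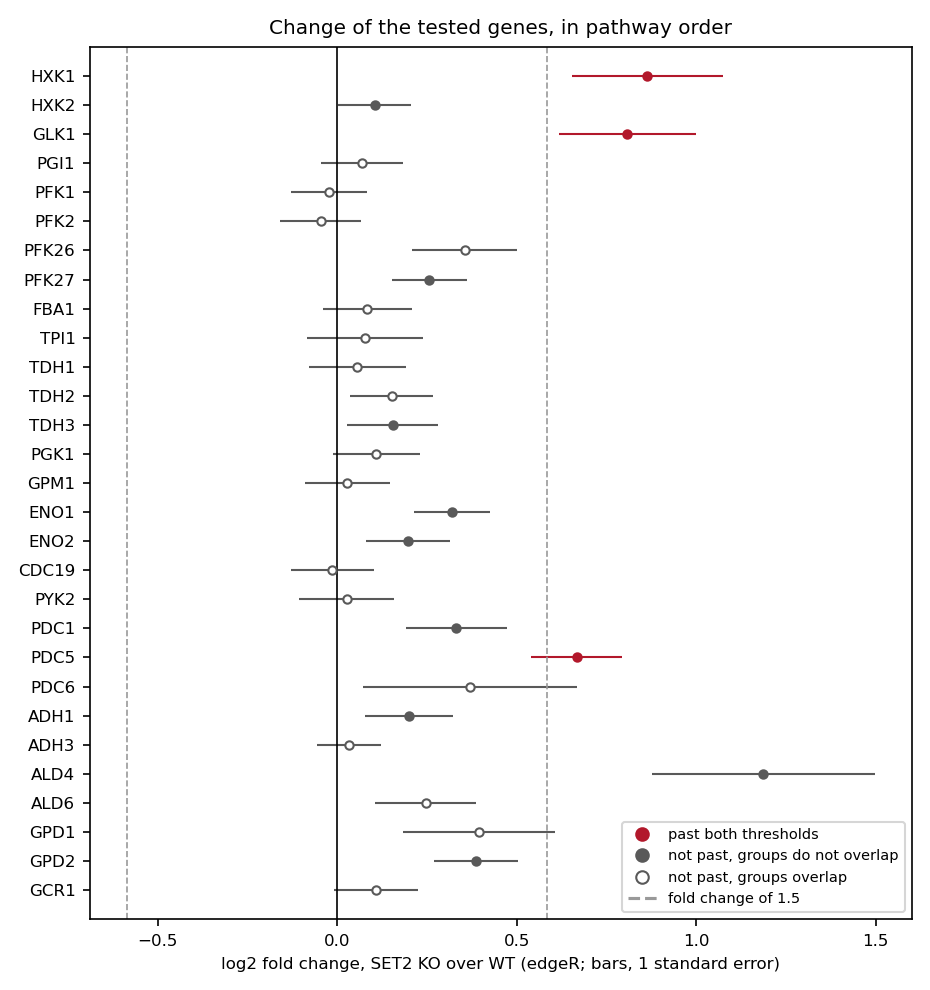
Log2 fold change of each tested gene (SET2 KO, that is Δset2, over WT, with bars of 1 standard error from edgeR), in pathway order, with the genes past both thresholds marked. HXK1, GLK1, and PDC5 are marked, ALD4 has the largest value (1.19), and 26 of the 29 values are above 0.

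At the entry of the pathway, both minor glucose-phosphorylating genes among the members rose and the major one did not pass the test. HXK1 (YFR053C, chromosome VI, 253592 to 255154, minus strand) had 419, 259.9, and 418 normalized CPM in the Δset2 samples, against 155, 257, and 193 in the WT samples. The 2 groups did not overlap, but Δset2 2 and WT 2 lay almost side by side. In edgeR it was 1.82-fold higher (log2 value 0.86, standard error 0.21, adjusted P = 0.042). GLK1 (YCL040W, chromosome III, 50838 to 52537, plus strand) had 929.7, 635, and 757 normalized CPM in the Δset2 samples, against 374, 579, and 374 in the WT samples. Again the lowest Δset2 value was that of Δset2 2 and the highest WT value that of WT 2. In edgeR it was 1.75-fold higher (log2 value 0.81, standard error 0.19, adjusted P = 0.036). HXK2, which encodes the hexokinase used during growth on glucose and also acts in glucose repression, averaged 2678 ± 126 normalized CPM in Δset2 cells and 2492 ± 46.2 in WT cells (SD, n = 3 each). Its log2 fold change of 0.10 did not pass the test (adjusted P = 0.58 from edgeR).

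The calls for HXK1 and GLK1 were lost with fewer samples, while their fold changes were not. With each sample left out in turn, the adjusted P value of HXK1 ran between 0.0052 and 0.18 and that of GLK1 between 0.0015 and 0.16, while the log2 fold changes stayed between 0.70 and 1.07 for HXK1 and between 0.65 and 1.05 for GLK1. Both lost the call when Δset2 1, Δset2 3, WT 1, or WT 3 was left out, and neither was called with a replicate block. HXK1 was also not called with upper quartile scaling.

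PGI1, which encodes phosphoglucose isomerase and had the highest level per countable kilobase of this stage, had 3664, 4359, and 3689 normalized CPM in the Δset2 samples, against 3619, 3808, and 3733 in the WT samples. Those groups overlapped, and the log2 fold change was 0.07 (adjusted P = 0.76 from edgeR). Phosphofructokinase, the committing step of glycolysis, has an alpha subunit encoded by PFK1 and a beta subunit encoded by PFK2. PFK2 had 3601, 4282, and 3756 normalized CPM in the Δset2 samples, against 3991, 4115, and 3908 in the WT samples, with a log2 fold change of -0.05 (adjusted P = 0.85 from edgeR). PFK1 was at -0.02, and the groups overlapped for both subunits.

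PFK26 and PFK27 encode the kinases that make fructose 2,6-bisphosphate, the activator of phosphofructokinase. PFK26 averaged 28.8 ± 3.39 normalized CPM in Δset2 cells and 22.9 ± 4.22 in WT cells, and PFK27 averaged 136 ± 8.33 in Δset2 cells and 114 ± 11.7 in WT cells (SD, n = 3 each). Their log2 fold changes were 0.35 and 0.26, and neither passed the test (adjusted P = 0.18 and 0.17 from edgeR).

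The 6 tested genes of the triose stage differed little between the strains. Their log2 fold changes ran between 0.06 and 0.15, the smallest adjusted P value was 0.46 (edgeR), and 0 of the 6 passed the test. TDH3 (YGR192C, chromosome VII, 882714 to 883898, minus strand) had 33708, 39378, and 35824 normalized CPM in the Δset2 samples, against 32091, 33404, and 32388 in the WT samples. All 3 Δset2 values were higher than the highest WT value, that of Δset2 1 by little. The log2 value was 0.15 (standard error 0.13, adjusted P = 0.50 from edgeR). The aldolase gene FBA1, the triose phosphate isomerase gene TPI1, the minor dehydrogenase genes TDH1 and TDH2, and the phosphoglycerate kinase gene PGK1 had overlapping groups. Reads from TDH1, TDH2, and TDH3 could be counted only where the copies differ, so the values of each rest on part of its length.

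In the lower stage, 0 of the 5 tested genes passed the test. ENO2 had 18101, 20206, and 18583 normalized CPM in the Δset2 samples, against 16586, 16293, and 16714 in the WT samples. These groups did not overlap, and the log2 fold change was 0.20 (adjusted P = 0.34 from edgeR). ENO1, the other enolase gene, averaged 3745 ± 37.1 normalized CPM in Δset2 cells and 2999 ± 182 in WT cells (SD, n = 3 each), with a log2 fold change of 0.32 (adjusted P = 0.10 from edgeR). DESeq2 put ENO1 past the adjusted P value, but not past the fold threshold. CDC19, the major pyruvate kinase gene, was at -0.01 on the log2 scale, its glucose-repressed counterpart PYK2 at 0.03, and the phosphoglycerate mutase gene GPM1 at 0.03. The groups overlapped in each of these 3 genes. GPM2, a homolog of GPM1, had only 100 countable positions of 1062 and between 2 and 8 reads per sample, so it was not tested.

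In the step that commits pyruvate to fermentation, PDC5 rose. PDC5 (YLR134W, chromosome XII, 410280 to 412504, plus strand) had 103, 133, and 124 normalized CPM in the Δset2 samples, against 68.0, 86.7, and 71.7 in the WT samples. The lowest Δset2 value was above the highest WT value. In edgeR it was 1.59-fold higher (log2 value 0.67, standard error 0.13, adjusted P = 0.016). PDC1, the major gene, averaged 22849 ± 1773 normalized CPM in Δset2 cells and 18158 ± 2412 in WT cells (SD, n = 3 each), with a log2 fold change of 0.33 (adjusted P = 0.19 from edgeR). PDC6 was too low to compare closely, with 10 to 50 reads per sample.

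The call of PDC5 held in 10 of the 13 alternatives, that of GLK1 in 8, and that of HXK1 in 7. The 13 include leaving out Δset2 2 and WT 2 together, a choice made after the values were seen. Each of these genes was called there, so each count includes it. PDC5 was the only member called with the replicate block and the only one called without Δset2 1, and it was also called without Δset2 2 or without WT 2. Leaving out Δset2 3, WT 1, or WT 3 ended the call, with adjusted P values up to 0.10, while the log2 fold change stayed between 0.59 and 0.77.

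The alcohol dehydrogenases form ethanol from acetaldehyde. ADH1 (YOL086C, chromosome XV, 159470 to 160638, minus strand) had 15749, 17086, and 14361 normalized CPM in the Δset2 samples, against 13714, 14321, and 13021 in the WT samples. The lowest Δset2 value was just above the highest WT value, and the log2 fold change was 0.20 (adjusted P = 0.36 from edgeR). ADH3, the mitochondrial isozyme, averaged 408 ± 3.74 normalized CPM in Δset2 cells and 399 ± 18.2 in WT cells (SD, n = 3 each). Its log2 fold change of 0.03 had a standard error of 0.09. ADH5, with 159 countable positions of 1286, had 4 to 18 reads per sample and was not tested.

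The acetate and glycerol branches held the largest fold change of the whole group. ALD4, which encodes the glucose-repressed mitochondrial aldehyde dehydrogenase (YOR374W, chromosome XV, 1039789 to 1041541, plus strand), is given in full although it did not pass the test. It had 286, 178, and 267 normalized CPM in the Δset2 samples, against 71.9, 174, and 76.9 in the WT samples. WT 2 was more than double the other WT samples and almost reached Δset2 2, the lowest of the Δset2 samples. In edgeR it was 2.28-fold higher (log2 value 1.19, standard error 0.31, adjusted P = 0.051). ALD4 passed both thresholds in 4 of the 13 alternatives: without WT 2 (1.71, adjusted P = 0.00021 from edgeR), without Δset2 2, without both, and without a filter on low counts. In the others it did not, with an adjusted P value of 0.13 from DESeq2, 0.15 with the replicate block, and up to 0.20 from edgeR without WT 3, where the log2 value was 0.99.

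ALD6, the major cytosolic aldehyde dehydrogenase gene, had 1752, 1916, and 1554 normalized CPM in the Δset2 samples, against 1380, 1269, and 1754 in the WT samples. The groups overlapped through WT 3, and the log2 fold change was 0.25 (adjusted P = 0.33 from edgeR). The glycerol-3-phosphate dehydrogenase genes GPD1, induced by osmotic stress, and GPD2, induced when oxygen is short, had log2 fold changes of 0.39 each. GPD2 averaged 405 ± 60.2 normalized CPM in Δset2 cells and 309 ± 11.1 in WT cells (SD, n = 3 each), and the groups did not overlap (adjusted P = 0.083 from edgeR). GPD1 overlapped, with Δset2 2 the lowest of its group and WT 2 the highest (adjusted P = 0.29 from edgeR), and it passed both thresholds without WT 2.

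GCR1, the transcriptional activator of the glycolytic genes, did not pass the test. It had 73.0, 84.1, and 66.9 normalized CPM in the Δset2 samples, against 70.6, 61.5, and 74.5 in the WT samples. In edgeR its log2 value was 0.11 (standard error 0.12, adjusted P = 0.62).

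**Figure D4:**
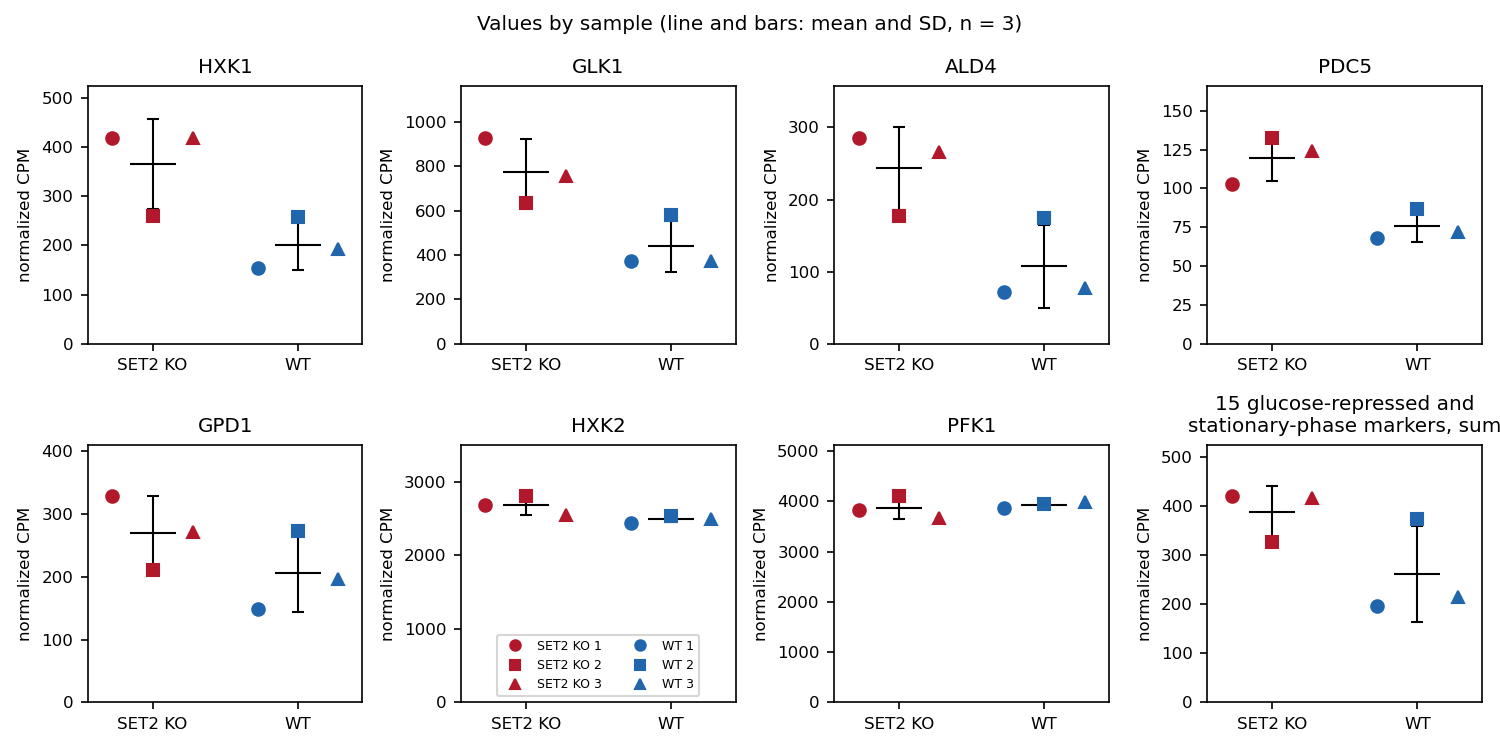
Normalized CPM by sample for 7 genes and for the sum of 15 glucose-repressed and stationary-phase markers, with SET2 KO (Δset2) left of WT and lines and bars for the mean and SD (n = 3). In HXK1, GLK1, and ALD4 the square symbols (SET2 KO 2 and WT 2) lie close together, whereas in PDC5 the groups are apart. In GPD1 and the marker sum, the WT 2 square lies above the SET2 KO 2 square.

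In a subset of the genes, replicate 2 was the extreme sample of each group, in opposite senses, as it was in many units outside the list. This order takes no account of distance. In GPM1, for example, WT 2 had 2306 normalized CPM and WT 3 had 2254. Δset2 2 was also the smallest library, with 5135226 counted reads. In 9 of the 29 tested genes (31.0%), WT 2 was the highest WT sample and Δset2 2 the lowest Δset2 sample, an order found in 22.4% of all tested units. They were HXK1, GLK1, ALD4, GPD1, PFK26, and PFK27, and also TDH1, GPM1, and PYK2, whose log2 fold changes were between 0.03 and 0.06. The summed level of the 15 genes of a marker list for glucose repression and stationary phase had the same order. It was 420, 327, and 417 normalized CPM in the Δset2 samples, against 196, 374, and 215 in the WT samples. In that list 7 genes had 0 reads in every sample, 7 were tested, and 0 were called higher, whereas PCK1 was called lower (log2 fold change -2.04). For each of the 7 genes with 0 reads, no read position was free of another unit, so the zeros give no level. SUC2 was the largest part of the sum in every sample. It had 201, 189, and 212 normalized CPM in the Δset2 samples, against 131, 188, and 134 in the WT samples. The part of this difference between libraries in the values of these 9 genes was not tested. A greater share of cells in such a state and more RNA per cell cannot be told apart in these samples.

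Several major genes did not follow that order. Across the 29 tested genes, WT 2 was the highest WT sample in 18, whereas Δset2 2 was the highest Δset2 sample in 17 and the lowest in 9. These counts have no share over all tested units beside them, so they only describe the list. Without Δset2 2 and WT 2 together, a choice made after the values were seen, 6 members passed both thresholds (HXK1, GLK1, PDC5, ALD4, GPD1, and PFK26). In all, 484 of the 5400 units tested in that setting passed both. Leaving out those samples, the nearest to the other group in 5 of these 6 genes, widens the difference by construction.

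Isozyme use was compared within each sample, where scaling cancels. A log2 ratio of reads per countable position could be formed for 15 of 16 pairs. In all 15 the values of the 2 groups overlapped, and the smallest two-sided exact permutation P value was 0.2, or 0.60 after adjustment over the 15 pairs. The HXK1 to HXK2 ratio averaged -2.65 ± 0.46 in Δset2 cells and -3.40 ± 0.34 in WT cells (SD, n = 3 each), a difference of 0.75. The GLK1 to HXK2 ratio differed by 0.72 and the ALD4 to ALD6 ratio by 1.02. By contrast, the PFK2 to PFK1 ratio averaged 0.02 ± 0.08 in Δset2 cells and 0.04 ± 0.05 in WT cells, and the ENO1 to ENO2 ratio averaged -2.42 ± 0.09 in Δset2 cells and -2.54 ± 0.10 in WT cells (SD, n = 3 each). With 3 samples in each group, no ratio could have passed an adjusted threshold of 0.05.

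**Figure D5:**
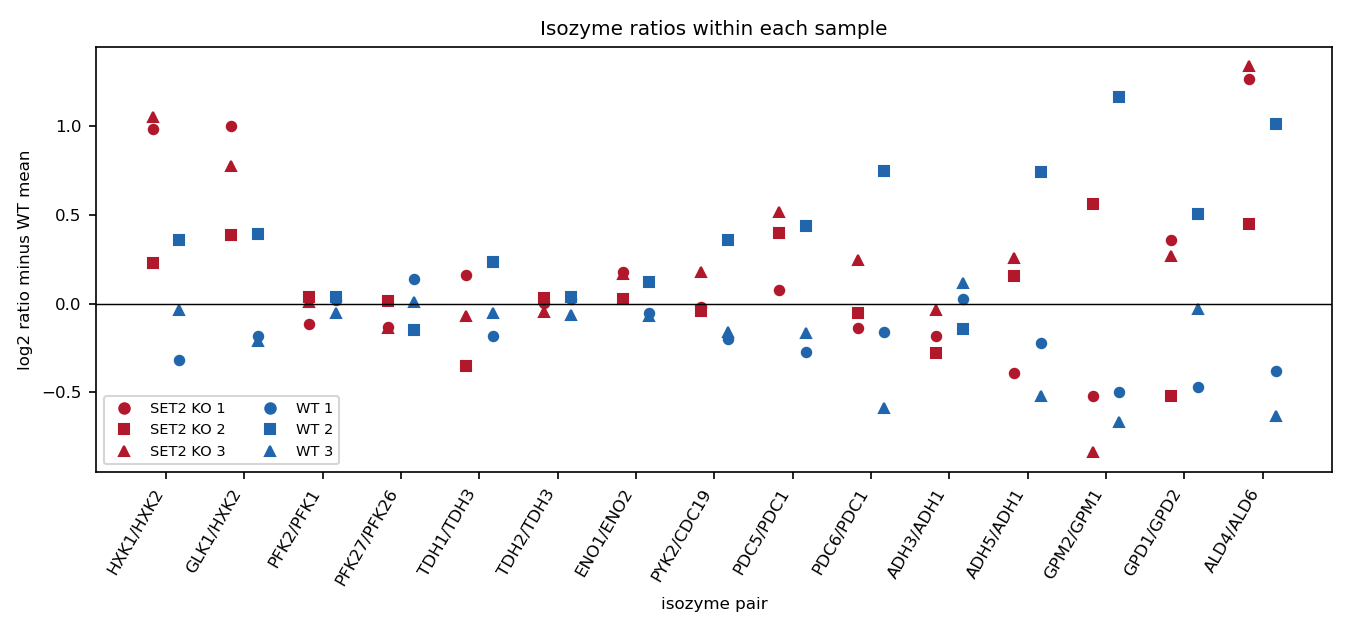
Log2 ratio of each isozyme pair within each sample, drawn as the difference from the WT mean of that pair, for SET2 KO (Δset2, red) and WT (blue). The groups overlap in all 15 pairs, and the replicate 2 squares of both groups lie close together for the HXK1 and GLK1 ratios. For the ALD4 ratio, the WT 2 square (-2.77 before centering) lies above the SET2 KO 2 square (-3.34).

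The upstream sequences of HXK1 and ALD4 are shown because both shared the order of samples described above. That of TDH3 is shown because TDH3 is the most abundant gene. Of these genes, only HXK1 passed the test. The windows are the 250 bases before each unit in the RefSeq R64 assembly, at chrVI:255155-255404 (minus strand) for HXK1, chrXV:1039539-1039788 (plus strand) for ALD4, and chrVII:883899-884148 (minus strand) for TDH3. Capitals mark AGGGG, the core of the stress response element bound by Msn2 and Msn4, and CTTCC, the core of the Gcr1 site, each on either strand (CCCCT and GGAAG).
HXK1: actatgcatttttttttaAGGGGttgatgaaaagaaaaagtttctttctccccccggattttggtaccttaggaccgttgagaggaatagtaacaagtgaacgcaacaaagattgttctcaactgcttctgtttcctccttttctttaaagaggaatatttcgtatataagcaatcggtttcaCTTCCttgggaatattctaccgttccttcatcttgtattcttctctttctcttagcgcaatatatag
ALD4: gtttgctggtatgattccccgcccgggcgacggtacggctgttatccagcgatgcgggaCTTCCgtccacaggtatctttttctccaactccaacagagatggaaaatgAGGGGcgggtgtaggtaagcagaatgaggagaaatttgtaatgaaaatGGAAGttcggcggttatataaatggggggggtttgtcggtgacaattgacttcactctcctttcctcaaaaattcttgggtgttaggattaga
TDH3: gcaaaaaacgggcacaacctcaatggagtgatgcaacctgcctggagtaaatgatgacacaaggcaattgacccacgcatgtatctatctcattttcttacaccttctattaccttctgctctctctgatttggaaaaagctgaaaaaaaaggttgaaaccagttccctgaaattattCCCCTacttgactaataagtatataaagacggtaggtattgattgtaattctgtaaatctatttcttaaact

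In the 500 bases before the start codon, AGGGG or its complement was found in 20 of the 32 genes, compared with 34.1% of the 6000 such windows before yeast genes. At least 2 matches were found in 7 of the 32 genes and in 8.13% of the windows. HXK1, GLK1, and GPD1 had 3 each, and TDH1, TDH3, ALD4, and GPD2 had 2 each. HXK2, PGI1, PFK1, PFK2, PFK27, FBA1, TDH2, GPM1, ENO2, PDC6, ADH2, and ADH3 had 0. Whether the matches go with the order of samples or with the fold changes was not tested. CTTCC or its complement was found in 24 of the 32 genes and in 66.1% of the windows, and at least 2 matches in 18 genes and 30.0% of the windows. ADH1 had 5, PGK1 had 4, and TDH3 had 0. A match describes letters in a window and is not a binding site.

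Neighbouring pathways were read from 6 further lists with 70 genes. Of all tested units, 3.57% passed both thresholds, so 1 call in so short a list says little about its pathway. Of 10 tested regulators of glycolytic and fermentative genes, 1 passed both thresholds: ADR1, which activates glucose-repressed genes such as ADH2, was higher in Δset2 cells (log2 fold change 0.86, adjusted P = 0.047 from edgeR). The largest fall in that list was PDC2, an activator of the PDC genes, at -0.36 (adjusted P = 0.12 from edgeR). Of 10 tested pentose phosphate genes, 1 passed, ZWF1, which encodes the glucose-6-phosphate dehydrogenase that opens the pathway (log2 fold change 0.78, adjusted P = 0.0052 from edgeR), and the lowest value was -0.18 for GND2. Of 8 tested genes for acetate, acetyl-CoA, and glycerol enzymes, 1 passed, the glycerol kinase gene GUT1 (log2 fold change 1.06, adjusted P = 0.00084 from edgeR), while ALD2 was at -0.61. GUT1 and ZWF1 stayed past both thresholds under each of the 13 alternatives that were run, whereas ADR1 did so in 6 of 13. The 6 include leaving out Δset2 2 and WT 2 together, chosen after the values were seen.

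The trehalose and glycogen genes, which store glucose units, had the highest median of the 6 lists. Of 16 tested genes, 14 were positive (87.5%, against 49.5% of all tested units) and the median log2 fold change was 0.47. In 13 of the 16, Δset2 2 was the lowest Δset2 sample and WT 2 the highest WT sample, and in 12 the groups overlapped. The part of these libraries in the list's values was not tested. GDB1, the glycogen debranching enzyme gene, passed both thresholds (log2 fold change 0.98, adjusted P = 0.016 from edgeR). TPS1, the trehalose-6-phosphate synthase gene (0.52), and NTH1, the neutral trehalase gene (0.46), passed the adjusted P value but not the fold threshold. Across all tested units, 6.24% passed the adjusted P value. Of the 13 alternatives, GDB1 passed both thresholds in 8, and TPS1 and NTH1 each passed the adjusted P value in 8. All 3 lost it without Δset2 1, Δset2 3, WT 1, or WT 3, and with the replicate block. For each gene, the 8 include leaving out Δset2 2 and WT 2 together, chosen after the values were seen. The lowest was PGM1, a phosphoglucomutase gene, at -0.33. In the list of further isozymes and opposing enzymes 0 of 5 tested genes passed, with ADH4, an alcohol dehydrogenase gene, at 0.43 (adjusted P = 0.0504 from edgeR) and GPM3 at -0.10. In the mitochondrial pyruvate entry list 0 of 8 tested genes passed, with the pyruvate carrier gene MPC3 at 0.94 (adjusted P = 0.30 from edgeR) and LAT1, a subunit gene of pyruvate dehydrogenase, at -0.16. MPC3 had 51.0, 23.7, and 47.9 normalized CPM in the Δset2 samples, against 8.62, 46.2, and 11.8 in the WT samples, with Δset2 2 again the lowest of its group and WT 2 the highest of its group. Of the genes in these lists and the marker lists, 20 had 0 reads in all samples, and for 17 of them no read position was free of another unit.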

How the data were processed

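RNA was sequenced from 3 Δset2 and 3 WT colonies. Reads were mapped by the authors to sacCer3 with TopHat2 2.1.0, reads with several positions or low mapping quality were removed, and whole-read counts per unit were deposited, without regard to strand and without reads that overlap several units. The authors also deposited FPKM values, a mean normalized signal, log2 fold changes, their standard errors and statistics (score columns), and p-values. Only the counts were used here, and the columns of the authors' comparison were left aside.

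Counts were filtered (filterByExpr) and tested over 5317 units with edgeR 4.0.16 (R 4.3.3), with TMM factors, the quasi-likelihood test, and Benjamini-Hochberg adjustment. Standard errors were derived from the F statistic. The fit was tested on simulated data. DESeq2 1.42.0, other scaling and filters, a replicate block, and leaving out each sample were alternatives. Isozyme ratios used a pseudocount of 0.5 reads. Countable positions were found with bwa 0.7.19, allowing 2 mismatches. Of 6048 RefSeq genes matched by identifier, 5999 (99.2%) lay inside their unit. Sequences came from RefSeq (R64), a reference strain that differs from W303.

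All members are named; values by sample are given for members past the adjusted P value, the most abundant member of each stage, and GCR1, and for ALD4 after its values were seen. Genes of other lists are named when past the adjusted P value or when they had the largest rise or fall. The members and lists were chosen with earlier results of these data known. Figures were drawn with matplotlib 3.10.9. MPC1 and MPC2 were not matched by name and were not analysed here.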

Additional observations from a re-analysis of the deposited data

How the results depend on the processing

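The count of units past both thresholds was 190, and between 80 and 484 with samples left out, where 484 came from leaving out Δset2 2 and WT 2 together and 373 from leaving out WT 2 alone. The members past both thresholds numbered 3, between 0 and 6 with samples left out, and those past the adjusted P value alone also 3, between 0 and 8. None was called without Δset2 3, WT 1, or WT 3. With a replicate block, 75 units and 1 member (PDC5) passed both thresholds, and 1 passed the adjusted P value alone. The replicate numbers did not pair the samples: the deviations of same-numbered samples were correlated at -0.32, -0.37, and -0.13. The number of isozyme pairs with separate groups was 0, and between 0 and 10 with samples left out, where 2 samples against 3 separate more easily. DESeq2, DESeq2-type or upper quartile scaling, no filter, and factors without the most abundant units gave 2 to 4 members past both thresholds and a median between 0.14 and 0.17.

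Directions of small log2 fold changes were not stable. CDC19 was at 0.0026 under upper quartile scaling. With samples left out, values ran between -0.067 and 0.057 for CDC19, -0.12 and 0.0046 for PFK2, -0.071 and 0.0095 for PFK1, -0.047 and 0.27 for TDH1, -0.069 and 0.11 for GPM1, -0.019 and 0.11 for PGI1, -0.034 and 0.14 for FBA1, -0.16 and 0.23 for TPI1, -0.085 and 0.20 for PYK2, -0.013 and 0.054 for ADH3, and -0.059 and 0.18 for GCR1. The cause was not tested. PDC6 had few reads in every sample although all its positions were countable. Overlap with other units left few countable positions for GPM2 and ADH5. Overlap together with identity to ADH1 left none for ADH2.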
